A study of Homo sapiens with 9 samples.

Results

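Matrix metalloproteinases are zinc enzymes that cut proteins of the extracellular matrix and of the cell surface, and TIMPs and RECK are their inhibitors. The genes described here are MMP1, MMP2, MMP7, MMP9, MMP14, MMP15, TIMP1, TIMP2, TIMP3 and RECK, 10 of the 56809 genes in the count table, and all 10 symbols were found there. MMP7 was picked because it lay on opposite sides of control in the 2 hairpin groups of these libraries. Its levels and fold changes are therefore a description, with no test. The other 9 genes complete the set of proteases and inhibitors.

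The cells were MDA-MB-468, an established human breast adenocarcinoma line, and RNA was sequenced in bulk from 9 libraries. The 3 control libraries came from cells that carried the pSicoR vector alone, and the other 6 from cells that carried pSicoR with a short hairpin against LMO2, a transcriptional cofactor. The hairpin shLMO2-1 and the hairpin shLMO2-2 had 3 libraries each. All 9 libraries thus came from vector-carrying cells of a single line. No cells without the vector and no hairpin against an unrelated target are among them. The labels do not say whether the triplicates were made or cultured separately. The p-values therefore measure only the spread between these libraries, which may be technical.

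Most secreted metalloproteinases are made as inactive precursors that are opened by other proteases, whereas the membrane-type enzymes MMP14 and MMP15 sit at the cell surface and are activated inside the cell by furin-like proteases. TIMPs block the active site of the mature enzymes. TIMP2 has a second role, since MMP14 with bound TIMP2 holds the precursor of MMP2 at the membrane for activation. TIMP3 is bound to the matrix and also inhibits ADAM proteases, and RECK is an inhibitor anchored in the cell membrane. MMP7, or matrilysin, is a small secreted enzyme made mainly by epithelial cells, and it cuts cell-surface proteins as well as matrix.

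The promoters of MMP7 and TIMP3 are shown because these are the protease and the inhibitor whose levels differed most between the hairpins among the genes that could be tested. Each is the 250 bases before the start site in RefSeq, with coordinates on GRCh38.p14, written 5′ to 3′ on the gene's own strand. The MMP7 window is chr11:102530748-102530997 on the minus strand. Its capitals mark an AP-1 site and a TATA box.
MMP7: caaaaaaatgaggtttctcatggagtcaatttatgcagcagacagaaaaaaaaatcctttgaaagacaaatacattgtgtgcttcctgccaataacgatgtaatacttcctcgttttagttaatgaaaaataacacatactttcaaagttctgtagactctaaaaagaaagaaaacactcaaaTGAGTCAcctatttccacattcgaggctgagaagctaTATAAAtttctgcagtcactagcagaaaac
The TIMP3 window is chr22:32801455-32801704 on the plus strand. Its capitals mark 5 GC boxes, read on either strand.
TIMP3: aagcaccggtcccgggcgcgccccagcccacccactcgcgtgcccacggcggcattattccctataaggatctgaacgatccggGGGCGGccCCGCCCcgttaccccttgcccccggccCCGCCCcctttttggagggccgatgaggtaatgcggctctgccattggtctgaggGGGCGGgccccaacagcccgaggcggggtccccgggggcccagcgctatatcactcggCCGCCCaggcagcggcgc

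The search covered 4 motifs on both strands. The AP-1 motif TGANTCA was present in 6.57% of the 35116 promoter windows of the same length, the TATA box TATAAA in 10.7%, the GC box GGGCGG in 42.6% and the E-box CANNTG in 61.8%. The MMP7 window held the AP-1 site, the TATA box and an E-box that overlaps the AP-1 site, and no GC box. The AP-1 site began 67 bases and the TATA box 30 bases before the start site. The TIMP3 window held 5 GC boxes and none of the other 3 motifs. A match is a description of the letters and not a measured binding site. Of the 10 genes, 6 had an entry in the promoter table.

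LMO2 transcripts, the hairpins' target, were rare in all libraries. The control libraries held 4, 35 and 19 counts, the shLMO2-1 libraries 2, 1 and 6, and the shLMO2-2 libraries 1, 4 and 3. Control replicate 1 lay within the range of the hairpin libraries. The log2 fold change of LMO2 was -2.45 for shLMO2-1 (adjusted p = 0.0907, edgeR quasi-likelihood test) and -3.02 for shLMO2-2 (adjusted p = 0.0441, same test). The shLMO2-1 difference was called without control replicate 1 (-2.90, adjusted p = 0.0268). The shLMO2-2 call was lost without control replicate 2 (-2.32, adjusted p = 0.138) and without any of control replicate 3, shLMO2-1 replicates 1 and 2 and the 3 shLMO2-2 replicates, at adjusted p between 0.062 and 0.132. It was also lost with limma-voom (adjusted p = 0.0928) and with only the groups compared in the edgeR fit (0.062), and the shLMO2-1 difference was called with no filter on low counts (0.0253). Library totals ran from 15494486 to 23069456 estimated counts. Control replicate 1 also stood apart on the first principal component of all tested genes, at -42.6, with the other controls at -18.2 and -20.6 and the hairpin libraries between -0.0825 and 28.9. That component also rose from replicate 1 to 3 within shLMO2-1 (-0.0825, 7 and 20.8) and shLMO2-2 (9.29, 15.4 and 28.9). On the second component replicate 1 lay at 14.1, 26.6 and 17.1 in control, shLMO2-1 and shLMO2-2, and replicate 3 at -24.6, -7.65 and -15.9. Control replicate 1 was the lowest of the 3 controls for all 7 of the genes that could be tested. Values without it are therefore given beside the proteases and inhibitors whose call, or direction in a pairwise comparison, they change. In the lists below, pairwise calls that changed without it are named. None changed among the other metalloproteinases or the ADAM and ADAMTS relatives. The epithelial markers EPCAM, CDH1, KRT7, KRT8, KRT18, KRT19 and EGFR were all expressed, and their summed level lay between 11500 and 11800 CPM in control, 14200 and 15200 in shLMO2-1, and 13100 and 14500 in shLMO2-2. Fibroblast markers summed to 9.79 to 17.1 CPM over the 9 libraries, with COL3A1 and LUM at 0, and leukocyte markers to 3.28 to 6.82 CPM, with CD3E at 0. Endothelial markers summed to 6.61 to 13.3 CPM in control, 13.2 to 18.1 in shLMO2-1 and 8.31 to 10.4 in shLMO2-2, and their part in the results below was not tested.

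CPM is a gene's estimated count per 1000000 counts of its library, on totals scaled by the TMM method. Of the 10 genes, 7 passed the filter on low counts, namely MMP7, MMP14, MMP15, TIMP1, TIMP2, TIMP3 and RECK, and MMP1, MMP2 and MMP9 did not. A gene was called at an adjusted p under 0.05 from edgeR's quasi-likelihood test with Benjamini-Hochberg adjustment over all 14709 genes tested. Every adjusted p below comes from that test unless another tool is named. In bulk RNA, fewer cells of a kind and less RNA per cell cannot be told apart.

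Among the proteases, MMP7 was higher than control with shLMO2-1 and lower with shLMO2-2. The control libraries held 105.8, 115.2 and 107.8 CPM, the shLMO2-1 libraries 128.0, 139.9 and 130.4 CPM, and the shLMO2-2 libraries 73.0, 65.4 and 71.3 CPM. No library of a group reached the range of another group. Control cells averaged 109.6 ± 4.95 CPM, cells with shLMO2-1 132.8 ± 6.34 CPM and cells with shLMO2-2 69.9 ± 4.02 CPM (SD, n = 3 each). The log2 fold change was 0.28 (SE 0.0684) for shLMO2-1 and -0.65 (SE 0.069) for shLMO2-2, which is a level 1.21-fold higher and 1.57-fold lower than control. Between the hairpins the level was 1.9-fold lower with shLMO2-2, a log2 difference of -0.93 (SE 0.0691). The mean of both hairpins lay at a log2 fold change of -0.19, since the opposite differences partly cancel. MMP7 lies at chr11:102520508-102530753 on the minus strand in GENCODE 29 (GRCh38), and no other annotated gene overlaps it. These values chose the gene and are not evidence for its pattern.

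**Figure D1:**
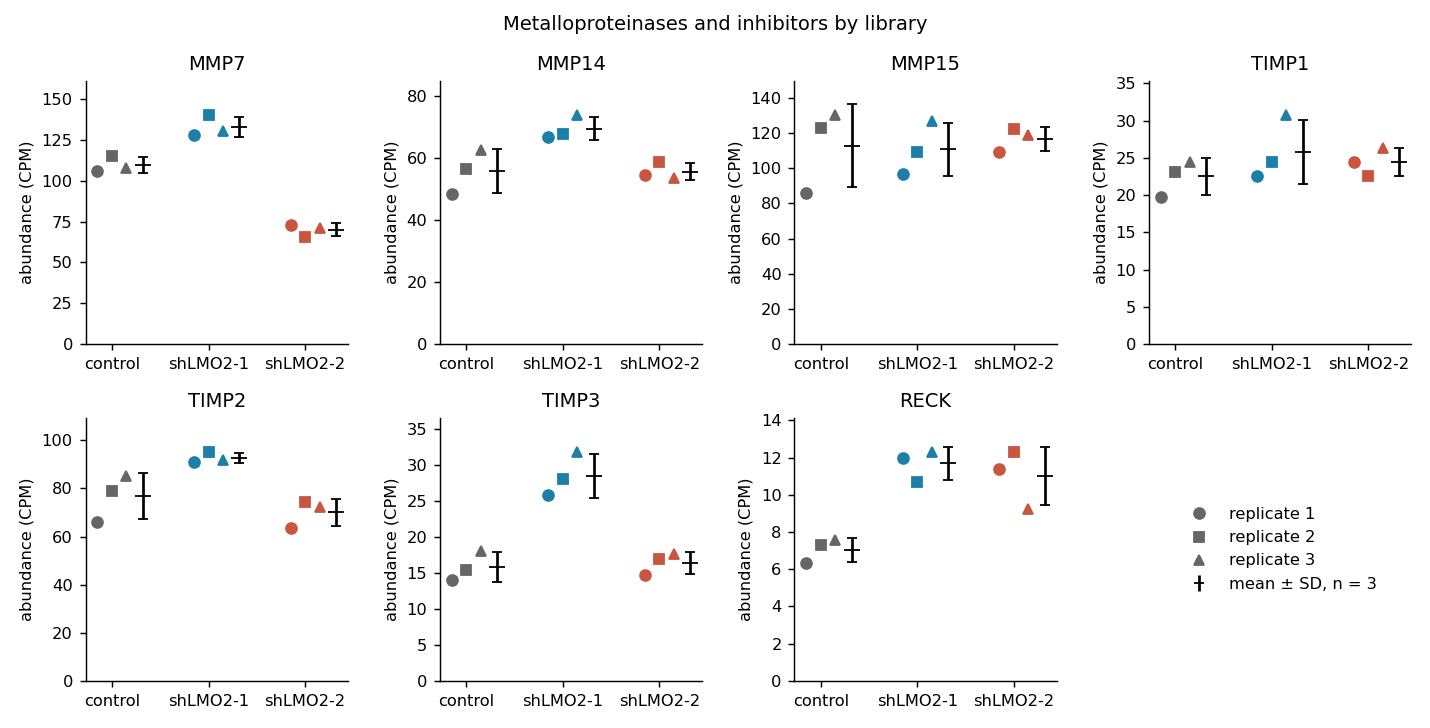
Level of each tested protease and inhibitor in CPM in the 9 libraries, with a marker per library and the mean ± SD of each group of 3 (control, shLMO2-1, shLMO2-2), and a separate axis from 0 for each gene. MMP7 shows 3 separate groups, TIMP3 is highest in the shLMO2-1 libraries (25.8 to 31.8 CPM), and RECK is higher in all 6 hairpin libraries than in control.

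MMP14 and MMP15, the membrane-type proteases, were not called in any contrast. The MMP14 level was 48.5, 56.5 and 62.4 CPM in the control libraries. The shLMO2-1 libraries held 66.8, 67.7 and 73.7 CPM, and the shLMO2-2 libraries 54.6, 58.8 and 53.6 CPM. The shLMO2-1 libraries lay above all others, whereas the control and shLMO2-2 libraries overlapped. Its log2 fold change for shLMO2-1 was 0.31 (95% interval 0.11 to 0.516, adjusted p = 0.0611), just outside the threshold, and DESeq2 called it (adjusted p = 0.027). Over the alternatives its adjusted p ranged from 0.0215 to 0.182, and leaving out control replicate 3 brought it to 0.0425. Without control replicate 1 the shLMO2-1 log2 fold change was 0.22 (adjusted p = 0.115). For shLMO2-2 the log2 fold change was -0.01 (95% interval -0.208 to 0.197, adjusted p = 0.978). Between the hairpins it was -0.32 (95% interval -0.52 to -0.116, adjusted p = 0.191), which became a call in 1 of the alternatives, without control replicate 1 (adjusted p = 0.0496). MMP14 lies at chr14:22836557-22849027 on the plus strand.

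MMP15 varied more between replicates than between groups. Its libraries ranged from 85.9 to 130.1 CPM in control, 96.5 to 126.7 in shLMO2-1 and 109.3 to 122.2 in shLMO2-2, so that all 3 groups overlapped. The log2 fold changes were -0.03 for shLMO2-1 (adjusted p = 0.935) and 0.05 for shLMO2-2 (adjusted p = 0.874), where the first changed sign when control replicate 2 (0.04), control replicate 3 (0.09) or shLMO2-1 replicate 1 (0.06) was removed and the second without control replicate 1 (-0.12). MMP15 lies at chr16:58025566-58046901 on the plus strand.

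The secreted collagenase MMP1 and the gelatinases MMP2 and MMP9 were at or near the limit of detection. MMP1 (chr11:102789920-102798160, minus strand) had 1 count in all, in shLMO2-1 replicate 2. MMP9 (chr20:46008908-46016561, plus strand) had 4, 0 and 1 counts in control, 4, 0 and 3 in shLMO2-1, and 4, 0 and 0 in shLMO2-2. A count of 0 allows up to 3 counts, or 0.13 to 0.198 CPM at these depths, for counting error only. MMP2 (chr16:55389700-55506691, plus strand) had 10, 10 and 8 counts in control, 7, 7 and 15 in shLMO2-1, and 5, 8 and 2 in shLMO2-2. That is 0.505 ± 0.0787, 0.598 ± 0.339 and 0.226 ± 0.141 CPM (SD, n = 3 each), and the 3 shLMO2-2 libraries (0.0899 to 0.371 CPM) lay below all others (0.394 to 0.989 CPM). In counts they did not, since shLMO2-2 replicate 2 held 8 and the smaller libraries of shLMO2-1 replicates 1 and 2 held 7 each. In the edgeR fit with no filter on low counts the log2 fold change of MMP2 for shLMO2-2 was -1.13 (SE 0.713, adjusted p = 0.47), and between the hairpins it was -1.36 (SE 0.712, adjusted p = 0.662). RNA of MMP2, the enzyme that MMP14 and TIMP2 activate together, was thus near the detection limit in libraries where MMP14 was at 48.5 CPM or more and TIMP2 at 63.6 CPM or more.

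Among the inhibitors, TIMP3 rose with shLMO2-1 and not detectably with shLMO2-2. The control libraries held 14.0, 15.4 and 18.0 CPM, the shLMO2-1 libraries 25.8, 28.0 and 31.8 CPM, and the shLMO2-2 libraries 14.7, 16.9 and 17.6 CPM. The shLMO2-1 libraries lay above all others, and the shLMO2-2 libraries were inside the range of control. The log2 fold change for shLMO2-1 was 0.85 (SE 0.124, adjusted p = 0.00245), a fitted level 1.8-fold higher, with 3 of 3 libraries above all controls. For shLMO2-2 it was 0.05 (95% interval -0.223 to 0.325, adjusted p = 0.842), and without control replicate 1 it was -0.04. Between the hairpins the level was 1.74-fold lower with shLMO2-2 (log2 difference -0.80, SE 0.123, adjusted p = 0.012). That call was lost without shLMO2-1 replicate 2 (-0.82, adjusted p = 0.0662), shLMO2-2 replicate 1 (-0.73, adjusted p = 0.0613) or shLMO2-2 replicate 2 (-0.83, adjusted p = 0.0623). The adjusted p over all alternatives ranged from 2.15e-06 to 0.0662. The call for shLMO2-1 held in every alternative fit, with adjusted p from 1.29e-07 to 0.0142. For the mean of both hairpins the log2 fold change was 0.45 (SE 0.109, adjusted p = 0.0224), and it was not called without control replicate 1 (0.36, adjusted p = 0.0666), control replicate 2 (0.43, adjusted p = 0.0651) or shLMO2-2 replicate 2 (0.43, adjusted p = 0.0525). TIMP3 lies at chr22:32801701-32863043 on the plus strand, inside SYN3 on the opposite strand, which was at 0.477, 0.465 and 0.591 CPM in the 3 groups.

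TIMP2 was also highest in the shLMO2-1 libraries, at a smaller difference than TIMP3, and was not called. Control libraries stood at 66.2, 79.1 and 85.2 CPM, those with shLMO2-1 at 90.8, 95.1 and 92.0 CPM, and those with shLMO2-2 at 63.6, 74.2 and 72.2 CPM. All shLMO2-1 libraries lay above all others. The log2 fold change was 0.27 for shLMO2-1 (95% interval 0.0623 to 0.477, adjusted p = 0.107) and -0.13 for shLMO2-2 (adjusted p = 0.42). Between the hairpins it was -0.40 (95% interval -0.611 to -0.196, adjusted p = 0.0975). Without control replicate 1 the values against control were 0.17 for shLMO2-1 (adjusted p = 0.207) and -0.24 for shLMO2-2 (adjusted p = 0.0876). DESeq2 called the difference between the hairpins (adjusted p = 0.00934), as did edgeR without control replicate 1 (adjusted p = 0.015), and the adjusted p over the alternatives ranged from 0.00325 to 0.349. TIMP2 lies at chr17:78852977-78925387 on the minus strand.

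TIMP1, a secreted inhibitor of most metalloproteinases, overlapped between all groups. Its libraries ranged from 19.8 to 24.5 CPM in control, 22.5 to 30.7 in shLMO2-1 and 22.6 to 26.3 in shLMO2-2. The log2 fold changes were 0.20 (adjusted p = 0.384) and 0.12 (adjusted p = 0.608) against control. TIMP1 lies at chrX:47582313-47586789 on the plus strand and overlaps the span of SYN1 on the minus strand. Whether their transcripts share bases was not checked, and reads of shared bases could not be told apart without strand. SYN1 stood at 6.6, 5.86 and 5.07 CPM in the 3 groups.

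RECK rose with both hairpins. The control libraries held 6.32, 7.28 and 7.56 CPM, the shLMO2-1 libraries 12, 10.7 and 12.3 CPM, and the shLMO2-2 libraries 11.4, 12.3 and 9.25 CPM. All 6 hairpin libraries lay above all 3 controls, and the hairpin groups overlapped each other. The log2 fold change was 0.72 for shLMO2-1 (SE 0.141, adjusted p = 0.0116) and 0.64 for shLMO2-2 (SE 0.14, adjusted p = 0.02), levels 1.65-fold and 1.55-fold higher than control. The difference between the hairpins was -0.09 (95% interval -0.388 to 0.213, adjusted p = 0.904). The shLMO2-1 call held in every alternative fit, with adjusted p up to 0.0481. The shLMO2-2 call was lost without shLMO2-2 replicate 1 (0.60, adjusted p = 0.0623) or replicate 2 (0.54, adjusted p = 0.0865), within a range of 0.00308 to 0.0865 over the alternatives. Without control replicate 1 the shLMO2-2 log2 fold change was 0.56 (adjusted p = 0.0497). For the mean of both hairpins the log2 fold change was 0.68 (SE 0.125, adjusted p = 0.00623). RECK lies at chr9:36036433-36124451 on the plus strand.

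Apart from MMP7, 9 genes were listed and 6 of them tested. With shLMO2-1, 2 of the 6 were called and both were higher, TIMP3 and RECK, where 8.42% of all tested genes were called (4.54% higher and 3.88% lower). With shLMO2-2, RECK alone was called and it was higher, where 8.97% of all genes were called (4.94% higher and 4.04% lower). For the mean of both hairpins TIMP3 and RECK were called, against 12.4%. Between the hairpins, TIMP3 alone was called, and it was lower with shLMO2-2, where 0.768% of all genes were called (0.347% higher and 0.422% lower). DESeq2 called 11.9%, 12.5% and 2.15% of all genes in the 3 pairwise comparisons, and limma-voom 7.66%, 9.33% and 0.836%. Of the genes called against control with shLMO2-1 and with shLMO2-2, 53.9% and 55.0% were higher, and with plain library totals in place of TMM scaling 41.8% and 40.5%. The median log2 fold change of the 6 was 0.29 with shLMO2-1 and 0.05 with shLMO2-2, and over all tested genes it was 0.000913 and -0.000241. Without control replicate 1 the fold changes of all 6 against control were lower. With shLMO2-2 MMP14 was then at -0.104, MMP15 at -0.123, TIMP1 at 0.0294, TIMP2 at -0.238, TIMP3 at -0.0367 and RECK at 0.556. With shLMO2-1 they were at 0.216, -0.197, 0.108, 0.167, 0.765 and 0.645 in the same order. The shLMO2-1 libraries did not overlap control in 4 of the 6 (MMP14, TIMP2, TIMP3 and RECK), where 28.3% of all tested genes did not overlap. For shLMO2-2 that held for RECK, against 29.9%, and between the hairpins for MMP14, TIMP2 and TIMP3, against 18.1%. The comparisons with control share the same 3 control libraries.

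**Figure D2:**
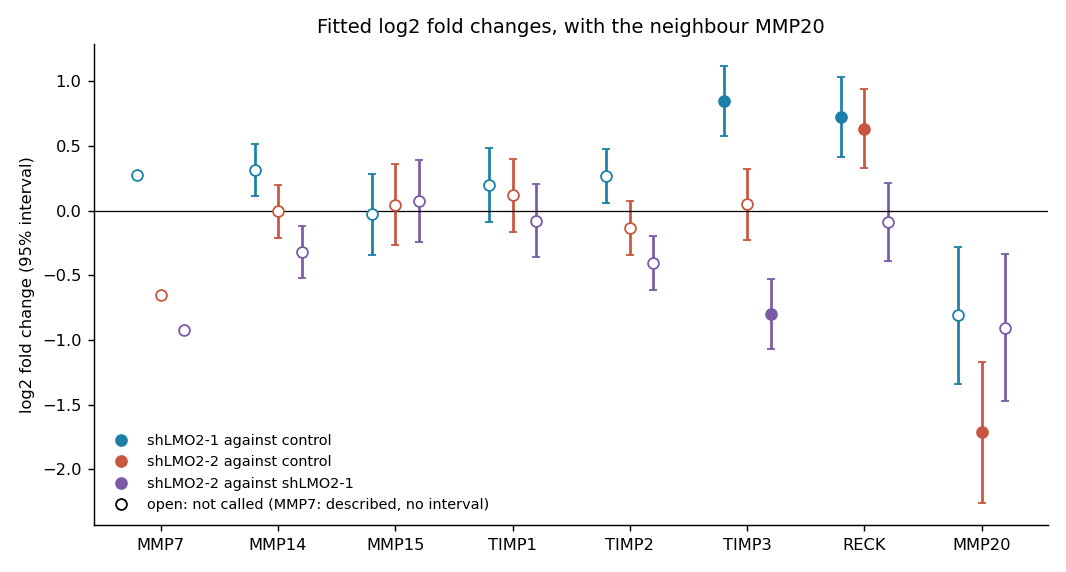
Log2 fold change of the tested proteases and inhibitors, and of the neighbouring gene MMP20, for shLMO2-1 and shLMO2-2 against control and for shLMO2-2 against shLMO2-1, with 95% intervals (none for MMP7), filled where called at an adjusted p under 0.05. RECK lies at 0.72 and 0.64 with the 2 hairpins, and TIMP3 at 0.85 with shLMO2-1 and 0.05 with shLMO2-2.

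Levels of different genes were compared per kilobase of each gene's longest protein-coding transcript. MMP7 was the most abundant of the 7 in control, at 97.4 ± 4.4 CPM per kilobase (SD, n = 3). MMP15 followed at 26.6 ± 5.58, TIMP2 at 21.0 ± 2.66, TIMP1 at 20.5 ± 2.23 and MMP14 at 15 ± 1.87 CPM per kilobase. The SDs of MMP15, TIMP2 and TIMP1 overlapped, so the order of these 3 is not resolved. The matrix-bound TIMP3 and the membrane-anchored RECK were the least abundant, at 3.43 ± 0.447 and 1.44 ± 0.133 CPM per kilobase. With shLMO2-1 the order was the same, with MMP7 at 118 ± 5.64, TIMP3 at 6.2 ± 0.655 and RECK at 2.39 ± 0.18 CPM per kilobase. With shLMO2-2 MMP7 stood at 62.1 ± 3.57 CPM per kilobase and was still first, and TIMP1 (22.3) came before TIMP2 (19.2). With the mean length of the coding transcripts, TIMP1 (31.7 CPM per kilobase in control) and MMP14 (25.9) came before TIMP2 (22.3), and the first and the last places were unchanged.

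**Figure D3:**
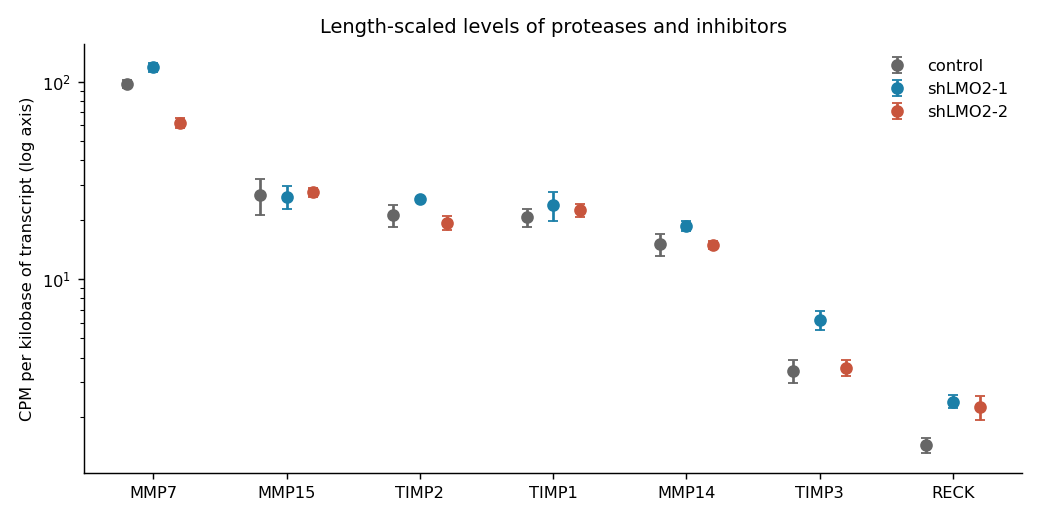
Level of the 7 tested genes in CPM per kilobase of the longest protein-coding transcript, on a log axis, as mean and SD of 3 libraries in each group. MMP7 is first in all 3 groups, from 62.1 to 118 CPM per kilobase, and RECK is last.

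The 5 genes whose log2 CPM over the 9 libraries was most like that of MMP7, among 11030 genes with a mean of at least 5 CPM, were TCF3 (Pearson r 0.973), OLFM4 (0.968), RAB8B (0.964), NFKBIA (0.96) and CYYR1 (0.959). They were found by searching all genes for the pattern, over libraries that share groups. TCF3, an E-protein transcription factor, stood at 201.2, 231.5 and 162.9 mean CPM in control, shLMO2-1 and shLMO2-2. CYYR1 stood at 30.9, 42.5 and 21.6 mean CPM in the same order. OLFM4 was at 416.3, 424.3 and 336.6, RAB8B at 19.8, 21.4 and 12.3, and NFKBIA at 65, 67.4 and 56.5. OLFM4, RAB8B and NFKBIA thus lay closer to control with shLMO2-1 than with shLMO2-2. Among the proteases and inhibitors, r with MMP7 was 0.759 for TIMP2, 0.641 for TIMP3, 0.592 for MMP14, 0.104 for TIMP1, -0.118 for RECK and -0.164 for MMP15.

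MMP7 lies in a cluster of metalloproteinase genes on chromosome 11. Within 500 kb of it were 13 other protein-coding genes, 8 of them metalloproteinases. MMP20, an enzyme known from tooth enamel, was the only metalloproteinase neighbour that could be tested, and it lies 46082 bases away at chr11:102576835-102625332 on the minus strand. The other 7 (MMP1, MMP3, MMP8, MMP10, MMP12, MMP13 and MMP27) had at most 2 counts over all libraries. For MMP20 the control libraries stood at 4.41, 4.05 and 3.97 CPM, those with shLMO2-1 at 2.64, 1.99 and 2.44 CPM, and those with shLMO2-2 at 1.44, 1.49 and 0.854 CPM. The 3 groups did not overlap, and both hairpin groups lay below control. MMP20 fell with shLMO2-2 (log2 fold change -1.71, SE 0.248, adjusted p = 0.00269), to a level 3.28-fold lower than control. With shLMO2-1 its log2 fold change was -0.81 (adjusted p = 0.0621), which DESeq2 (adjusted p = 0.0394) and limma-voom (adjusted p = 0.0486) called, as did the edgeR fit without shLMO2-2 replicate 3 (adjusted p = 0.0407). The antisense gene AP000851.1 overlaps the span of MMP20 and stood at 13.1, 9.46 and 5.7 CPM. Whether their transcripts share bases was not checked, and reads of shared bases could not be told apart without strand.

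Of the 4 other tested neighbours of MMP7, BIRC2, an apoptosis inhibitor, was called, at -0.40 with shLMO2-2 (adjusted p = 0.023), and the call was lost without shLMO2-2 replicate 1, 2 or 3 (adjusted p = 0.0617, 0.0836 and 0.0793). BIRC3, its relative, was at -0.53 (adjusted p = 0.279) and -0.98 (adjusted p = 0.0551) with shLMO2-1 and shLMO2-2, where the second was called without control replicate 2 (-1.12, adjusted p = 0.048) or shLMO2-1 replicate 3 (adjusted p = 0.0467) and was -0.59 without control replicate 1 (adjusted p = 0.123). The second was also called with no filter on low counts (adjusted p = 9.64e-12), with the replicate number as a block (0.00019) and with at least 10 counts in every library (0.0487). Over all alternatives its adjusted p ranged up to 0.183. TMEM123 was at -0.02 and -0.11, and YAP1 at 0.04 and 0.05, in the same order. No tested neighbour was called higher with either hairpin. Of all tested genes, 4.54% and 4.94% were called higher and 3.88% and 4.04% lower with shLMO2-1 and shLMO2-2. With 5 neighbours tested, the absence of higher calls says little beside these shares.

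**Figure D4:**
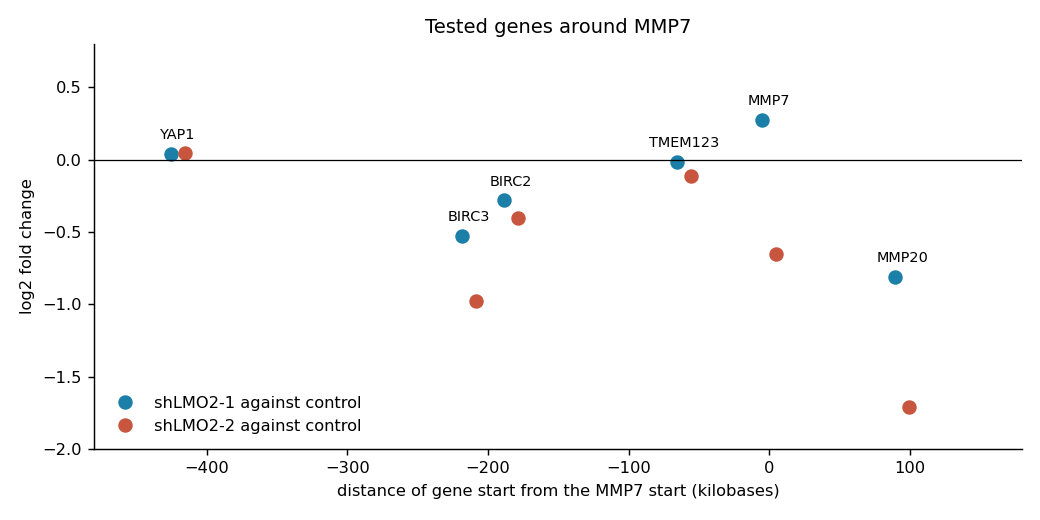
Log2 fold change against control of MMP7 and of the tested protein-coding genes within 500 kb, by the distance of their start from the start of MMP7 in kilobases, for shLMO2-1 and shLMO2-2 (points of a gene are set slightly apart). MMP20 lies below 0 with both hairpins, and MMP7 above 0 with shLMO2-1 and below 0 with shLMO2-2.

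For 5 lists of related genes, the calls of the same fit were counted and are to be read beside the shares of all tested genes given above. Of 18 other metalloproteinase family members, 4 could be tested. None was called with shLMO2-1, and MMP20 alone with shLMO2-2, with median log2 fold changes of -0.11 and -0.33. None was called between the hairpins (median -0.46).

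Of 21 activators, surface anchors, clearance receptors and other inhibitors, 18 were tested. With shLMO2-1, 3 were called higher and 2 lower (median log2 fold change 0.13), and with shLMO2-2, 2 higher and 0 lower (median 0.07). None was called between the hairpins (median -0.02). LCN2, a lipocalin that binds and protects MMP9, rose with both hairpins, from 15 ± 0.548 CPM to 28.6 ± 1.25 and 29.1 ± 6.1 CPM (SD, n = 3 each). Its log2 fold changes were 0.93 (adjusted p = 0.00227) and 0.96 (adjusted p = 0.00214). A2M, a protease trap of body fluids, fell with shLMO2-1, from 75.9 ± 11.4 to 49.8 ± 4.47 CPM (log2 fold change -0.61, adjusted p = 0.0114), and was at -0.33 with shLMO2-2 (adjusted p = 0.102). These calls held whichever library was left out. LRP1, an uptake receptor for proteases and their inhibitors, was at 0.50 (adjusted p = 0.0262) and TFPI2, a serine protease inhibitor, at 0.58 (adjusted p = 0.0456) with shLMO2-1. CD44, a hyaluronan receptor that can anchor MMP7 and MMP9, was at -0.27 (adjusted p = 0.0449) and is named after its value was seen. These 3 calls depended on single libraries. Any of control replicate 3 and the 3 shLMO2-1 replicates ended all 3 calls when left out, control replicate 2 also those of LRP1 and TFPI2, and any shLMO2-2 replicate those of TFPI2 and CD44. Their adjusted p rose to 0.108, 0.14 and 0.144 at most. The second gene called with shLMO2-2 was TSPAN1, at 0.69 (adjusted p = 0.0107), and it was lost without shLMO2-2 replicate 3 (adjusted p = 0.0505). Without control replicate 1, PLAUR was called with shLMO2-1 (0.385, adjusted p = 0.0271) and PLAU with shLMO2-2 (-0.60, adjusted p = 0.0481). Between the hairpins LRP1 (-0.47, adjusted p = 0.0256), TFPI2 (-0.73, adjusted p = 0.00363) and TSPAN1 (0.56, adjusted p = 0.0267) were then called.

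Of 18 known transcription regulators of MMP7, 17 were tested. With shLMO2-1, 3 were called higher and 2 lower (median log2 fold change -0.01), and with shLMO2-2, 0 higher and 3 lower (median -0.105). None was called between the hairpins (median -0.08). JUN, a subunit of AP-1, fell with both hairpins, from 158.6 ± 4.32 CPM to 123.9 ± 9.17 and 119.6 ± 2.49 CPM. Its log2 fold changes were -0.36 (adjusted p = 0.0091) and -0.41 (adjusted p = 0.00452). ETV4, an ETS-family factor, rose with shLMO2-1, from 11 ± 0.857 to 19.5 ± 0.927 CPM (log2 fold change 0.82, adjusted p = 0.00324), and was at 0.39 with shLMO2-2 (adjusted p = 0.0825). The calls of JUN and ETV4 held whichever library was left out. STAT3, the effector of cytokine receptors, was at -0.25 with shLMO2-1 (adjusted p = 0.0134, named after its value was seen) and -0.24 with shLMO2-2 (adjusted p = 0.0164). The first was lost without shLMO2-1 replicate 3 (adjusted p = 0.057) and the second without any shLMO2-2 replicate (adjusted p up to 0.0584). ETV5, a relative of ETV4, was at 0.57 (adjusted p = 0.033) and SOX9, a progenitor-cell factor, at 0.31 (adjusted p = 0.0174) with shLMO2-1, and ETS1 at -0.59 (adjusted p = 0.04) with shLMO2-2. SOX9 lost its call without control replicate 2 or shLMO2-1 replicate 1 or 2 (adjusted p up to 0.0674). ETV5 lost it without any single library but control replicate 1 and shLMO2-2 replicate 3 (up to 0.129), and ETS1 without any but control replicates 1 and 2 and shLMO2-1 replicate 3 (up to 0.138). The value of ETS1 was -0.36 without control replicate 1 (adjusted p = 0.046). Leaving out that library also made calls of FOSL1, a partner of JUN in AP-1, at 0.84 with shLMO2-1 (adjusted p = 0.00191, against 0.28 and 0.612 with all libraries) and 0.53 with shLMO2-2 (adjusted p = 0.0212, against -0.03 and 0.96). It likewise made calls of TCF7 with both hairpins (0.38 each, adjusted p = 0.0291 and 0.0323) and of RELA with shLMO2-1 (-0.22, adjusted p = 0.0357). Between the hairpins ETS1 (-0.405, adjusted p = 0.0432) and ETV5 (-0.68, adjusted p = 0.0187) were then called.

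Among 23 ADAM and ADAMTS relatives, which TIMP3 can also inhibit in part, 11 were tested. None was called with shLMO2-1 (median log2 fold change 0.05). ADAMTS4, an aggrecan-cutting enzyme, was called lower with shLMO2-2 (-0.88, adjusted p = 0.0192; list median -0.025), and the call was lost without shLMO2-2 replicate 2 or 3 (adjusted p = 0.0757 and 0.0774). ADAMTS1 was called lower between the hairpins (-2.57, adjusted p = 0.0362; list median -0.07) at a mean under 1 CPM. It is named after its value was seen, and the call was lost without any single library but control replicate 1 and shLMO2-2 replicate 1 (adjusted p up to 0.165).

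Of 22 matrix and cell-surface substrates, 12 were tested. With shLMO2-1, 3 were called higher and 1 lower (median log2 fold change 0.36), with shLMO2-2, 1 higher and 2 lower (median 0.02), and between the hairpins 1 lower (median -0.05). FN1, or fibronectin, rose with shLMO2-1, from 56.2 ± 8.38 to 96.5 ± 4.96 CPM (log2 fold change 0.78, adjusted p = 0.00158), and was at 0.27 with shLMO2-2 (adjusted p = 0.131). TNC, or tenascin C, measured 101.7, 66.4 and 70.2 CPM in the control libraries, 122.3, 120.3 and 110.8 CPM with shLMO2-1, and 53.0, 50.9 and 50.5 CPM with shLMO2-2. The 3 groups did not overlap, in the same order as for MMP7. Between the hairpins TNC was lower with shLMO2-2 (log2 difference -1.19, adjusted p = 0.00174), and this call and that of FN1 held whichever library was left out. Against control TNC was at 0.57 (adjusted p = 0.0256) and -0.62 (adjusted p = 0.0181). The first was lost without control replicate 2 or 3 or any shLMO2-1 replicate (adjusted p up to 0.0963), and the second without shLMO2-2 replicate 2 or 3 (0.0719 and 0.071). HSPG2, or perlecan, was at 0.62 with shLMO2-1 (adjusted p = 0.0156; lost without shLMO2-1 replicate 1 or 2, at up to 0.0692), and LAMB3, a laminin chain, at 0.72 with shLMO2-2 (adjusted p = 0.0108; lost without shLMO2-2 replicate 2, at 0.0513). COL4A1, a basement membrane collagen named after its values were seen, was at -1.68 (adjusted p = 0.0208) and -1.29 (adjusted p = 0.0446). Its call with shLMO2-1 was lost without control replicate 3 or shLMO2-1 replicate 2 or 3 (adjusted p up to 0.0917), and that with shLMO2-2 whichever single library was left out (up to 0.162). Without control replicate 1, TNC with shLMO2-2 was at -0.415 (adjusted p = 0.00544). FN1 was then called with shLMO2-2 (0.39, adjusted p = 0.0216) and between the hairpins (-0.51, adjusted p = 0.00685), COL1A1 with shLMO2-2 (0.63, adjusted p = 0.0306), LAMA5 (0.47, adjusted p = 0.0294) and LAMB3 (0.70, adjusted p = 0.00124) with shLMO2-1, and HSPG2 between the hairpins (-0.50, adjusted p = 0.0457).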

How the data were processed

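RNA was measured in 9 bulk libraries of MDA-MB-468 cells, 3 for each of 3 groups taken from the plasmid in the labels, and none was left out. Polyadenylated RNA was selected before library preparation, per the labels' protocols. The authors deposited a single table of estimated counts per gene, of which 11.67% to 12.81% per library were not whole numbers. The submitters' processing notes name Salmon 0.12, DESeq2 1.22.2 and the build GRCh38.p12, with no role or order. The use of strand is not given in the sources used here, so reads of bases shared by genes on opposite strands may not be told apart. Overlap was read from whole gene spans, and shared exons were not looked for.

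Estimated counts were rounded to whole numbers and tested with edgeR 4.0.16 in R 4.3.3 (TMM scaling, filterByExpr with a minimum count of 10 and a minimum total of 15, LMO2 kept in). The quasi-likelihood fit held all 9 libraries and group as its only factor, and p-values were adjusted by Benjamini-Hochberg over the 14709 genes tested, which hold 99.91% of the counts. A gene was called at an adjusted p under 0.05. Standard errors were derived from the log2 fold change and its F statistic, and the 95% intervals from the moderated degrees of freedom. Gene positions and transcript lengths are those of GENCODE release 29 by symbol, and promoters those of RefSeq. Likeness to MMP7 used log2(CPM + 0.5). The fit was tested on simulated data. Replicates of a group differed by more than counting noise, with a chi-square per gene of 5.04 to 27.7.

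The genes, the lists and the tests were chosen with earlier results of these data known. All 10 genes and LMO2 are named. From each list, up to 4 genes per pairwise contrast are named, those called whose mean is 1 CPM or more, by the largest log2 fold change. Others are marked where they appear. List calls for the mean of both hairpins are not given. List genes named because their call differed without control replicate 1 were chosen after their values were seen. The alternatives were median-of-ratios or plain total scaling, no filter or at least 10 counts in every library, DESeq2 1.42.0, limma-voom (limma 3.58.1), a fit of only the groups compared, the replicate number as a block, a threshold of 0.01, and leaving out each of the 9 libraries. PCR copies are not marked in these data, so limits from counts cover counting error only.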

Additional observations from a re-analysis of the deposited data

Results flagged for a closer look

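TIMP3 was the inhibitor whose difference was itself called between the hairpins, at a log2 difference of -0.80 for shLMO2-2 against shLMO2-1 (SE 0.123, adjusted p = 0.012, edgeR quasi-likelihood test). Against the shared controls its log2 fold changes were 0.85 and 0.05. The 3 shLMO2-1 libraries held 25.8 to 31.8 CPM and the 3 shLMO2-2 libraries 14.7 to 17.6 CPM. The call rested on single libraries, since leaving out shLMO2-1 replicate 2, shLMO2-2 replicate 1 or shLMO2-2 replicate 2 brought the adjusted p to 0.0662, 0.0613 and 0.0623.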

How the results depend on the processing

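Of the proteases and inhibitors other than MMP7, 2 were called with shLMO2-1, 1 with shLMO2-2, 2 for the mean of both hairpins and 1 between the hairpins. At a threshold of 0.01 these became 1, 0, 1 and 0, where 2.4%, 2.65%, 4.24% and 0.313% of all tested genes were called. Leaving out single libraries gave 2 to 3, 0 to 1, 1 to 2 and 0 to 3. With shLMO2-2 the count was 0 without shLMO2-2 replicate 1 or 2. Between the hairpins it was 3 without control replicate 1 and 0 without shLMO2-1 replicate 2 or shLMO2-2 replicate 1 or 2. It was 2 (TIMP2 and TIMP3) with no filter on low counts, with DESeq2 and with only the groups compared. The replicate numbers were also fitted as a replicate block, as a hint from the data only. Same-numbered libraries correlated at 0.429 to 0.629 for replicates 1 and 3 and at -0.205 to 0.0645 for replicate 2. The labels name no shared batch, so the numbers were not taken as pairs, and not every library correlated best with its own number. The correlated values are deviations from each group's mean, which cancel out within a group. The low values for replicate 2 therefore cannot decide whether batches were shared. With the block the count was 4 for shLMO2-1 (MMP14, RECK, TIMP2 and TIMP3) and 2 between the hairpins. Over all tested genes the block moved the calls from 1239 to 2214 with shLMO2-1, from 1320 to 2377 with shLMO2-2 and from 113 to 257 between the hairpins. For the mean of both hairpins it moved them from 1823 to 3024, and LMO2 was called with shLMO2-1 (adjusted p = 0.0417). Other fits that moved the calls over all genes by more than 1.5 times gave, between the hairpins, 378 with no filter, 316 with DESeq2 and 189 with only the groups compared, and 695 (shLMO2-1) and 776 (shLMO2-2) with only the groups compared. Leaving out single libraries gave 546 to 1397 with shLMO2-1, 494 to 1243 with shLMO2-2, 947 to 1592 for the mean and 38 to 239 between the hairpins. The lowest came without shLMO2-1 replicate 3, shLMO2-2 replicate 2, control replicate 3 and shLMO2-1 replicate 2 in that order, and 239 without control replicate 1. The causes were not tested.

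Differences near 0 changed sign. When single libraries were left out, RECK between the hairpins ranged from -0.182 to 0.0191, TIMP3 with shLMO2-2 from -0.0367 to 0.157 (-0.00826 without shLMO2-2 replicate 3) and MMP14 with shLMO2-2 from -0.104 to 0.0823. MMP14 with shLMO2-2 was 0.000307 with no filter and 0.00016 with the block. MMP15 ranged from -0.197 to 0.0852 with shLMO2-1, from -0.123 to 0.161 with shLMO2-2 and from -0.0156 to 0.176 between the hairpins, and TIMP1 between the hairpins from -0.169 to 0.0555. These signs turned without control replicate 1 (TIMP3, MMP15 with shLMO2-2), control replicate 2 or 3 (MMP14, MMP15 with shLMO2-1), shLMO2-1 replicate 1 (MMP15 with shLMO2-1 and between the hairpins) or replicate 3 (TIMP1), and shLMO2-2 replicate 1 (MMP14) or replicate 3 (RECK, TIMP3, MMP14).

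Calls in the lists are given in the order shLMO2-1, shLMO2-2 and between the hairpins. In that order, 6.43%, 7.25% and 1.45% of all genes in the fit were called with no filter, and 15.1%, 16.2% and 1.75% with the block. With only the groups compared the shares were 4.86%, 5.35% and 1.31%, and with at least 10 counts 9.91%, 10.1% and 0.869%. Those of DESeq2 and limma-voom are given above. The lists moved as follows. Other metalloproteinases had 0, 1 and 0 calls. The first became 1 with at least 10 counts, DESeq2, limma-voom or the block, and the last 1 with no filter, DESeq2 or the block, and single libraries gave 0 to 1, 1 to 1 and 0 to 0. Activators and inhibitors had 5, 2 and 0. The first became 2 with only the groups compared, the second 8 with no filter, 5 with DESeq2 and 8 with the block, and the last 4, 4, 3 and 3 with no filter, DESeq2, only the groups compared and the block, and single libraries gave 2 to 6, 1 to 3 and 0 to 3. Regulators of MMP7 had 5, 3 and 0. The first became 3 with only the groups compared, the second 5 with DESeq2 and 6 with the block, and the last 2 with no filter and 1 with DESeq2, only the groups compared or the block, and single libraries gave 3 to 8, 1 to 5 and 0 to 2. ADAM relatives had 0, 1 and 1. The first became 1 and the second 2 with no filter or the block, and the last 0 with at least 10 counts, and single libraries gave 0 to 0, 0 to 1 and 0 to 1. Matrix substrates had 4, 3 and 1. The first became 7 and the second 6 with no filter or the block, and the last 3 with no filter, DESeq2 or only the groups compared and 2 with at least 10 counts, limma-voom or the block, and single libraries gave 1 to 6, 0 to 4 and 1 to 3. Transcript length set the order of TIMP1, MMP14 and TIMP2 per kilobase, at 31.7, 25.9 and 22.3 with the mean length, and MMP15 was at 49.1. Depth limits MMP1, MMP2 and MMP9, which had at most 15 counts in a library.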
